A study of Mus musculus with 8 samples.

Results

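Among the p300 loci unique to control, 6772 intervals lay near genes and away from myogenin, and they made up 30.7% of the 22051 p300 intervals called in control C2C12 cells. A member was an interval of the control p300 list that shared no base with any interval of the bexarotene p300 list. Its centre was more than 1 kb and at most 50 kb from the nearest transcription start site (TSS) of a protein-coding gene, and it overlapped no myogenin interval of either condition. Chromosome 8 from 80 to 100 Mb was left out. C2C12 is an established mouse myoblast line of the C3H strain, and all cells compared here were moved to differentiation medium for 24 h, either alone (Ctl) or with 50 nM bexarotene (Bex), an agonist selective for the retinoid X receptor (RXR). ChIP-seq of p300 and of myogenin gave 1 library each for Ctl and Bex, and these 4 of the series' 8 samples come with called intervals. The input and H3K27me3 samples were not used here. The lists hold positions in mm9 and no read counts, so they show where p300 was called and not how strongly it was bound.

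p300 is a histone acetyltransferase without sequence-specific DNA binding of its own, and transcription factors bring it to enhancers and promoters. Enhancers away from promoters often carry sites for AP-1, the dimers of Fos and Jun proteins, together with sites for lineage factors. In muscle cells the basic helix-loop-helix factors MyoD and myogenin bind the E-box and recruit p300, and Runx and Tead factors bind beside them. Members lie near genes but hold no called myogenin interval, so they show what p300 loci of differentiating myoblasts look like where myogenin was not called.

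The membership steps set the number of members and are no result. Of all control p300 intervals, 14849 (67.3%) had no overlap with the bexarotene list, which holds 9154 intervals. Of these, 281 were in the part of chromosome 8 that was left out, 1812 were within 1 kb of a TSS and 5269 were farther than 50 kb. The remaining 7487 included 715 that overlapped myogenin, 418 of them in the control myogenin list and 567 in the bexarotene list. The same distance and myogenin rules left 2601 shared intervals that did overlap the bexarotene list, so 72.3% of the 9373 near-gene intervals without myogenin were unique to control. With 1 library per condition, and with no total for each library in the sources used here, fewer reads in the bexarotene library and less p300 on the DNA cannot be told apart. For the same reason the conditions were not tested against each other. Shares below carry 95% Wilson intervals and differences 95% Newcombe intervals, and both cover counting error over intervals and not the variation between cultures.

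The sequences printed here show members with the AP-1 consensus and members with the E-box. The first set holds members of the genes with most members or of a listed gene family, and each sequence is the central 100 bases on the plus strand of mm9, with TGACTCA on either strand in capitals. These came from the set chosen by the fixed rule and held the AP-1 consensus inside the printed bases:
Smad3, chr9:63588260-63588359, intron 1 of Smad3: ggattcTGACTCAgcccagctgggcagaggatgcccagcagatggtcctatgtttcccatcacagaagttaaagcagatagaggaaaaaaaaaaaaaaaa
Pde4d, chr13:110484598-110484697, intron 3 of Pde4d: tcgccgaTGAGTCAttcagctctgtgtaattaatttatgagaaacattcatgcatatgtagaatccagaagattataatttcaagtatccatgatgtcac
Runx1, chr16:92654234-92654333, intron 5 of Runx1: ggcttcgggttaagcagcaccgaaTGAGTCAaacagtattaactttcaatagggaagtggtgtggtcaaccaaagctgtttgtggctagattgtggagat
Elmo1, chr13:20140249-20140348, intergenic: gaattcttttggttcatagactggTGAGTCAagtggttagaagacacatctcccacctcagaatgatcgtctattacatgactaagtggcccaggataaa

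The second set was chosen after the sequences were seen, as the member of each gene whose AP-1 consensus lay nearest its centre. Smad3 encodes a transducer of TGF-beta signals, Cd44 a hyaluronan receptor, Plcb4 a phospholipase C, Ets1 an Ets family transcription factor and Sept9 a septin of the cytoskeleton:
Smad3 second member, chr9:63573240-63573339, intron 1 of Smad3: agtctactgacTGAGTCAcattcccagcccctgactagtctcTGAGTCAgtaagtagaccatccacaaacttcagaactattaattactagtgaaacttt
Cd44, chr2:102713537-102713636, intron 1 of Cd44: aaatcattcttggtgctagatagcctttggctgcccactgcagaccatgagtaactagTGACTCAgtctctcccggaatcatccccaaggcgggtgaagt
Plcb4, chr2:135599556-135599655, intron 2 of Plcb4: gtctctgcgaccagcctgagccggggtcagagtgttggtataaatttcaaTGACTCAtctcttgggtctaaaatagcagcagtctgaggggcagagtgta
Ets1, chr9:32437180-32437279, intergenic: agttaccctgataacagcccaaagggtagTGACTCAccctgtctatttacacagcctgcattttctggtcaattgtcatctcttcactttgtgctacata
Sept9, chr11:117120952-117121051, intron 2 of Sept9: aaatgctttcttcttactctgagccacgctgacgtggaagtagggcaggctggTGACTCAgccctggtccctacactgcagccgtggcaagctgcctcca

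The third set shows members that hold the E-box CAGCTG (capitals) yet overlap no myogenin interval. They are nearest to genes with muscle functions, chosen from the listed muscle genes after the sequences were seen. Myod1 and Mef2a encode transcription factors of the muscle lineage, Myl4 an embryonic and atrial myosin light chain and Adam12 a surface protease linked to fusion:
Myod1, chr7:53634519-53634618, intergenic: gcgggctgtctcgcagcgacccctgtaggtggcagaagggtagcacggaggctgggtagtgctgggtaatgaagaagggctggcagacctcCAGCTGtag
Mef2a, chr7:74516376-74516475, intron 1 of Mef2a: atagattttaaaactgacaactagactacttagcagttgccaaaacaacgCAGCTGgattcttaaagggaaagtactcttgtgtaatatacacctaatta
Myl4, chr11:104422478-104422577, intron 1 of Myl4: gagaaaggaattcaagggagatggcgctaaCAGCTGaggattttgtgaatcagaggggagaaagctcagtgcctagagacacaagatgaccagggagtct
Adam12, chr7:141129323-141129422, intron 11 of Adam12: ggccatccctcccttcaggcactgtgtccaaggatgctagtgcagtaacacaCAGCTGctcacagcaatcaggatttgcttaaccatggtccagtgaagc

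The second Smad3 sequence held the AP-1 consensus 2 times, which 253 members (3.74%, 3.31% to 4.21%) did within 100 bp of the centre. The Ets1 and Cd44 sequences came from intervals of 351 and 328 bp, whereas the Mef2a and Myl4 sequences came from intervals of 159 bp, the smallest length in the list. The Myod1 member spanned 240 bp and lay 2.73 kb downstream of the TSS. Myod1 was nearest to 5 control p300 intervals in all, and this was the only one among the members.

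Members were short intervals. Their lengths ran from 159 to 1053 bp with a median of 200 bp, and 3148 of them (46.5%, 45.3% to 47.7%) had the smallest length of 159 bp. Shared near-gene intervals had a median of 324 bp, and 10.0% (8.94% to 11.2%) had the smallest length. A longer interval meets the overlap rule more easily than a short interval. The length contrast between members and shared intervals may therefore follow in part from how the classes were defined. The size of that part was not tested. The 4940 intervals unique to control over 50 kb from a TSS, without myogenin, had a median of 205 bp, close to that of members. Of these, 40.8% (39.4% to 42.1%) were of the smallest length. The 589 near-gene intervals unique to bexarotene and without myogenin were shorter still. Among them 83.2% (80.0% to 86.0%) had the smallest length of their own list, 158 bp. Only 6.02% of members reached 400 bp, against 30.0% of shared intervals. Because of their number, members nevertheless covered 1536 kb of the genome and shared intervals 925 kb.

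**Figure D1:**
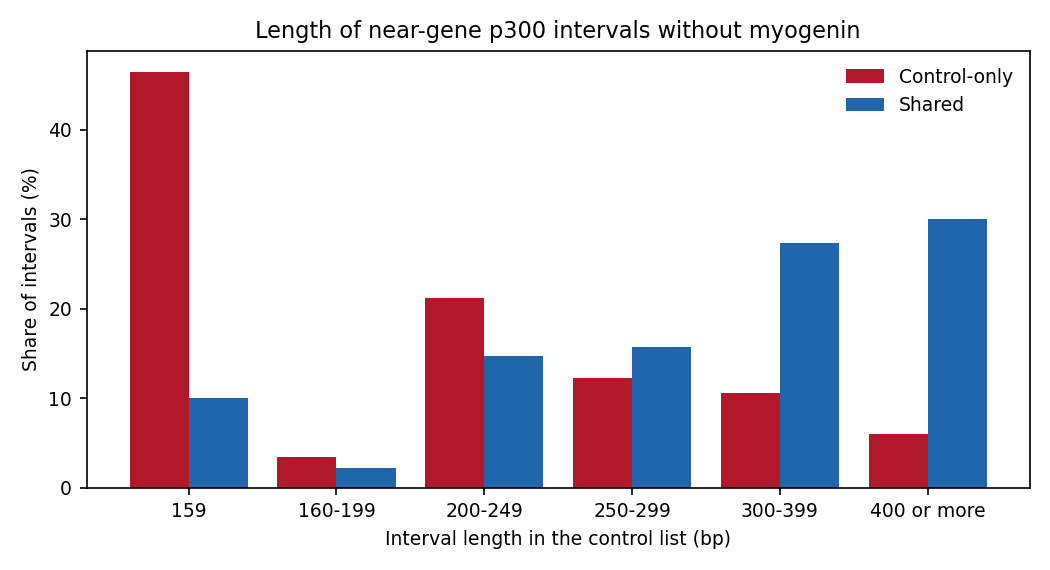
Share of intervals (vertical axis, %) in each length class (horizontal axis, bp) for the 6772 near-gene p300 intervals unique to control and the 2601 shared ones, each as a share of its own class. The smallest class held 46.5% of the intervals unique to control and 10.0% of the shared ones, and the class of 400 bp or more held 6.02% and 30.0%. Longer intervals meet the overlap rule more easily, and the part of that rule in the contrast was not tested.

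The longest members show that the class was not made of short intervals alone. The longest, 1053 bp, lay between genes 48.2 kb upstream of Ifne, an epithelial type I interferon gene. Next came one of 995 bp upstream of Calml3, a calmodulin-like gene, which held the AP-1 consensus 3 times over its whole length. A member of 938 bp lay in intron 1 of Ninj2, an adhesion molecule gene, and one of 936 bp lay in intron 1 of Anxa2, a membrane-binding annexin gene, with 2 AP-1 and 4 Runx consensus matches. In contrast, a member of 915 bp in intron 1 of Chd3, which encodes a chromatin remodeller, held no AP-1, Runx, Tead or E-box consensus.

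Most members lay inside genes. Of the 6772, 3579 (52.9%, 51.7% to 54.0%) were intronic, 3023 (44.6%, 43.5% to 45.8%) intergenic and 170 (2.51%, 2.16% to 2.91%) exonic. The shared near-gene intervals were intronic in 50.4% of cases, 2.48 percentage points (0.226 to 4.74) below the members. The median distance to the nearest TSS was 16.4 kb for members and 18.1 kb for shared intervals, and 46.1% of members (44.9% to 47.3%) lay upstream of that TSS. At the distance limits the members passed smoothly into the neighbouring intervals, with 45 intervals just inside 1 kb and 47 just outside it, and 68 just inside 50 kb and 65 just outside. The nearest interval of the bexarotene p300 list was a median of 29.5 kb away, and the nearest myogenin interval a median of 43.3 kb. Some members came close to one: 60 had a bexarotene p300 interval within 200 bp of their edge and 448 within 1 kb, and 113 had a myogenin interval within 200 bp.

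AP-1 was the consensus most raised at members. TGACTCA, searched on both strands within 100 bp of the centre, was present in 2114 members (31.2%, 30.1% to 32.3%). Windows of the same length 2 kb to either side of members that held no p300 interval held it in 3.46% (3.16% to 3.78%) of 13132 cases, a ratio of 9.03. Over all control p300 intervals the share was 27.8%. Members were 3.0 percentage points (0.885 to 5.15) below shared near-gene intervals, at 34.2%, and this difference depended on how the classes were delimited. When members with a bexarotene interval within 1 kb were counted as shared instead, members held AP-1 in 32.1% and stood 0.204 points above the enlarged shared class, so most of the move was in the shared class. The difference was -0.552 points among intervals longer than the smallest. It was larger, -6.19 points, when shared meant a reciprocal overlap of 50%, and -9.74 points over the whole interval, where the longer shared intervals gave more bases to search. Members were 13.9 points (10.5 to 17.0) above the intervals unique to bexarotene, at 17.3%. They were also 9.68 points (6.33 to 12.7) above the 715 intervals that met the other rules but overlapped myogenin, at 21.5%.

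The Runx consensus TGTGGT was less frequent in members than in shared intervals. It was present in 29.8% (28.7% to 30.9%) of members and 37.1% of shared near-gene intervals, a difference of 7.29 points (5.15 to 9.45), and in 14.5% of the neighbouring windows. The difference kept its direction in every alternative tried, from 4.99 points with a window of 50 bp on each side to 16.9 points over the whole interval. That last setting searched more bases in shared intervals, with a median length of 324 bp against 200 bp in members. Within 1 length class the whole-interval Runx shares of members and shared intervals were 47.5% and 48.0% at 300 to 399 bp, but 23.6% and 36.4% at 159 bp. The Tead consensus GGAATG was present in 19.2% of members and 19.9% of shared intervals, and the interval of the difference ran from 2.52 points lower to 1.07 points higher. Over the whole interval the Tead difference, members minus shared, was -8.79 points (-10.8 to -6.81). The Cebp consensus TTGCNNAA was present in 13.7% of members, 2.55 points (0.947 to 4.22) below shared intervals, and in 7.98% of neighbouring windows. The rarer TGACGTCA, bound by Creb and Atf dimers, was present in 0.369% of members and 0.0685% of neighbouring windows.

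**Figure D2:**
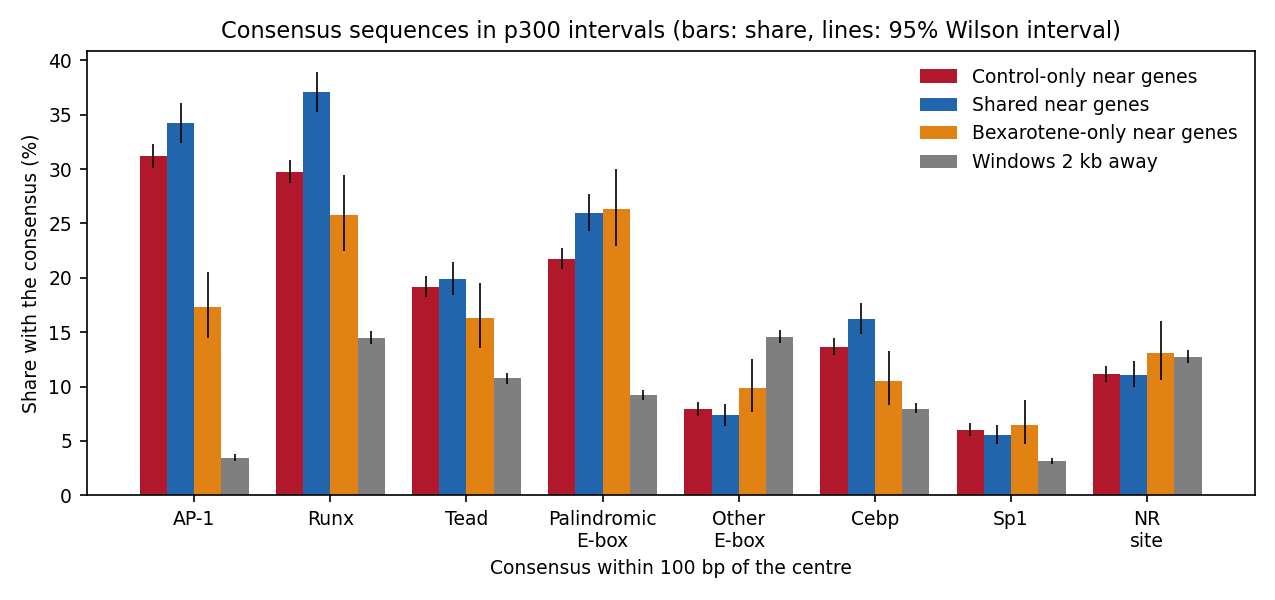
Share of intervals or windows (vertical axis, %) with each consensus within 100 bp of the centre, with 95% Wilson intervals as lines, for p300 intervals near genes without myogenin that were unique to control (6772), shared (2601) or unique to bexarotene (589), and for 13132 windows 2 kb from members. The palindromic E-box is CAGCTG, the other E-box CACCTG and the NR site the nuclear receptor core AGGTCA. AP-1 stood at 31.2%, 34.2%, 17.3% and 3.46% in that order, and the other E-box was the one consensus plotted that stood far below the windows in members, 7.93% against 14.6%.

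Both E-boxes were searched, and they went in opposite directions from the surrounding DNA. CAGCTG, the form preferred by MyoD and myogenin, was present in 21.8% (20.8% to 22.7%) of members and 9.21% of neighbouring windows, and members stood 4.20 points (2.27 to 6.17) below shared intervals. CACCTG, which is also bound by the Zeb and Snai repressors and by some E-proteins, was present in 7.93% (7.31% to 8.60%) of members and 14.6% (14.0% to 15.2%) of those windows, 6.65 points (5.76 to 7.53) lower. Shared intervals held CACCTG in 7.34%, and all control p300 intervals in 9.13%, so the low share was not particular to members. The 715 intervals set aside for their myogenin overlap held CACCTG in 20.1% (17.4% to 23.2%), above the windows. With no myogenin condition the share of members was 9.10%, so leaving out myogenin overlap itself lowered it. In the neighbouring windows the most frequent context was AGGCAGGTGGAT, with 77 of 2125 CACCTG matches, and it made up 4 of 567 matches in members. Without matches inside CACCTGCCT the shares were 7.58% of members and 13.5% of windows. Either E-box was present in 27.7% (26.7% to 28.8%) of members and 31.3% of shared intervals, against 71.2% of the 715 intervals set aside for their myogenin overlap.

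The matches gathered at the centre of members. AP-1 occurred at 2.64 matches per kb within 20 bp of the centre and 0.207 per kb at 300 to 500 bp from it, a ratio of 12.7, and in shared intervals at 3.15 per kb with a ratio of 15.2. Runx occurred at 2.01 per kb in the centre of members and 0.862 per kb outside. CAGCTG rose from 0.537 to 1.49 per kb towards the centre, whereas CACCTG fell from 0.731 to 0.343 per kb. Shared intervals had the same dip, from 0.681 to 0.308 per kb.

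**Figure D3:**
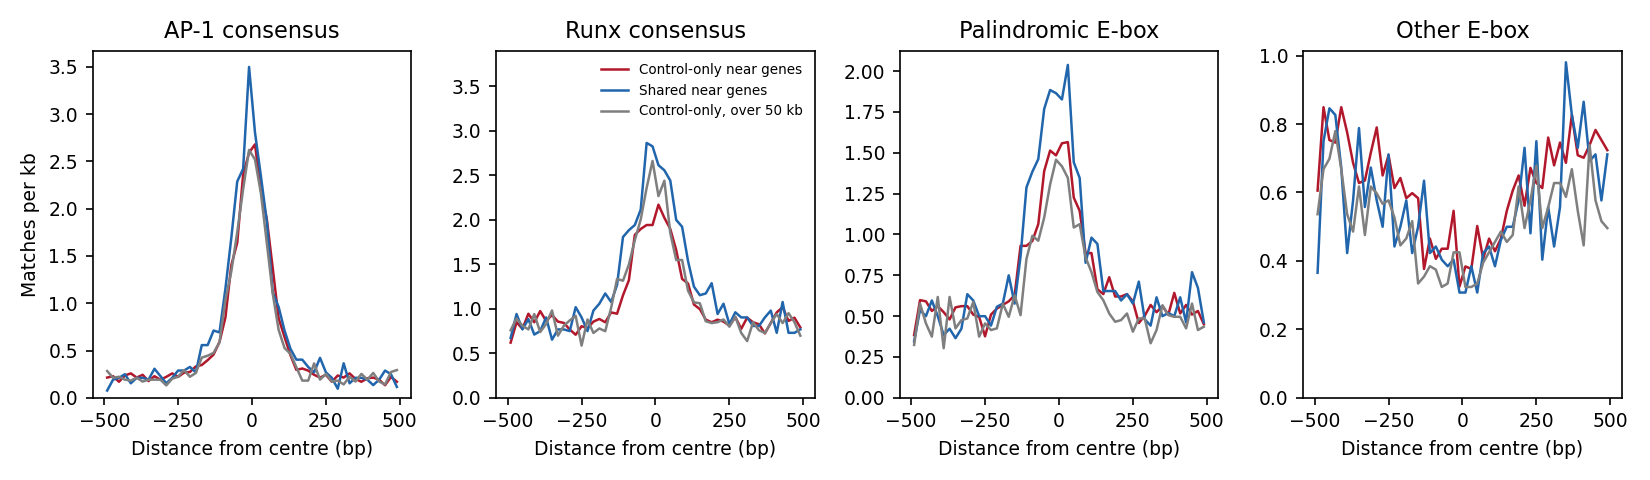
Consensus matches per kb (vertical axes, each panel with its own scale from 0) in bins of 20 bp by distance from the interval centre (horizontal axes, bp), for p300 intervals unique to control near genes (6772), shared near genes (2601) and unique to control over 50 kb from a TSS (4940). None of these intervals overlapped a myogenin interval. AP-1, Runx and the palindromic E-box CAGCTG peaked at the centre, and the other E-box CACCTG dipped there, to 0.343 per kb in members within 20 bp of the centre.

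The bases on either side of the AP-1 consensus differed between members and their surroundings. Of the 2379 matches in members, read on the strand that gives TGACTCA, 277 were GTGACTCAC (11.6%, 10.4% to 13.0%), the most frequent of the 16 possible contexts. In the neighbouring windows it made up 37 of 462 matches (8.01%, 5.87% to 10.8%), and there CTGACTCAG led with 11%. ATGACTCAT made up 10.2% (9.02% to 11.5%) of matches in members and 4.55% (2.99% to 6.85%) in the windows. TTGACTCAA was the rarest context in members, at 0.631%, and made up 4.76% in the windows. Shared intervals had the order of members at both ends, with 12.9% for GTGACTCAC and 0.483% for TTGACTCAA.

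The AP-1 share was lowest in the longest members. The consensus was present within 100 bp of the centre in 27.9% (26.4% to 29.5%) of members of 159 bp and in 37.1% (33.9% to 40.4%) of those of 250 to 299 bp, but in 21.3% (17.6% to 25.6%) of those of 400 bp or more. Over the whole interval that last class held it in 37.5%, which shows that in long members the consensus often lay off the centre. Shared intervals had the same course, with 30.3%, 42.4% and 24.7%. The Runx shares lay apart at both ends of the length range, with 27.4% (25.9% to 29.0%) of members and 39.1% (33.4% to 45.1%) of shared intervals at 159 bp, and 29.7% and 39.4% at 400 bp or more. At 250 to 299 bp the Runx shares were 34.1% and 34.3%.

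**Figure D4:**
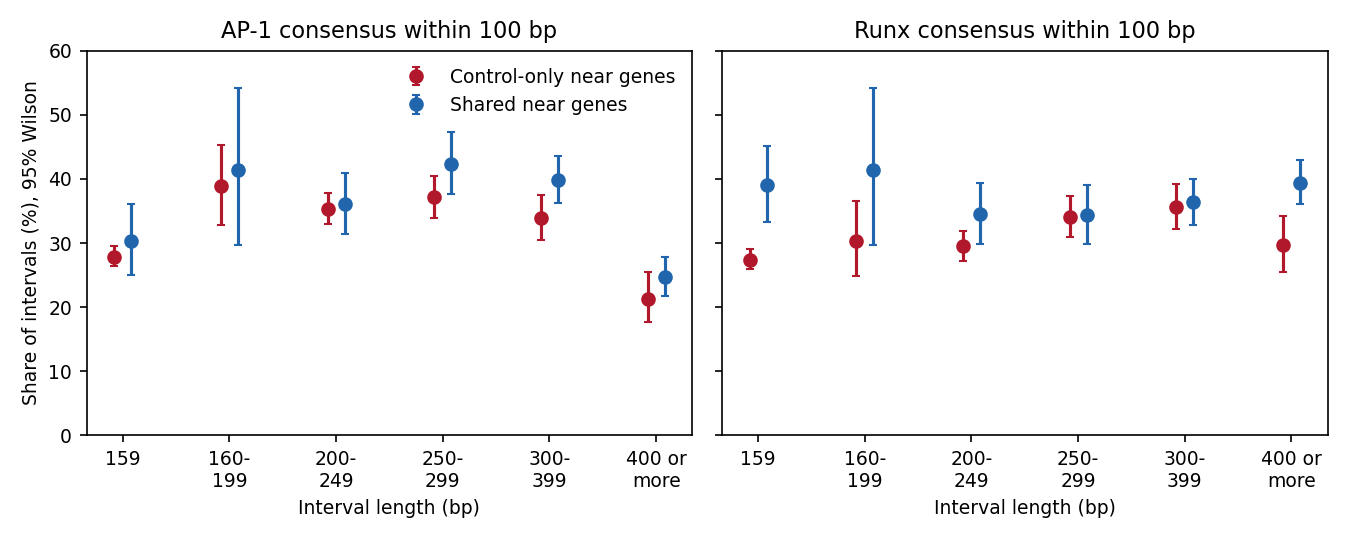
Share of near-gene p300 intervals (vertical axis, %, with 95% Wilson intervals) holding the AP-1 or the Runx consensus within 100 bp of the centre, by interval length (horizontal axis, bp), for intervals unique to control and shared ones. The AP-1 shares rose and fell together in both classes and were lowest at 400 bp or more (21.3% and 24.7%), whereas the Runx shares parted at 159 bp (27.4% and 39.1%).

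Members near a TSS were different in sequence from those farther away. At 1 to 2 kb, AP-1 was present in 22.9% (18.9% to 27.3%) of 385 members, and in every farther class its share lay between 30.5% and 32.4%. Sp1, searched as GGGCGG and bound by Sp and Klf factors that are common at promoters, went the other way, from 12.2% (9.31% to 15.9%) at 1 to 2 kb to 5.04% (4.30% to 5.90%) at 20 to 50 kb. Intronic and intergenic members held AP-1 alike, at 31.4% and 31.3%. Runx, Tead and E-box matches were somewhat rarer in members with AP-1 than in those without: 28.1% against 30.5% for Runx, 17.0% against 20.2% for Tead and 24.8% against 29.0% for either E-box. A further 1775 members (26.2%, 25.2% to 27.3%) held none of these 4, against 20.5% of shared intervals, a difference of 5.76 points (3.86 to 7.60). The share was 26.5% over all control p300 intervals and 26.2% in those unique to control over 50 kb from a TSS, without myogenin, so it was not particular to members.

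RXR and its partners bind copies of AGGTCA, and members seldom held such a pair. A single AGGTCA was present in 11.1% (10.4% to 11.9%) of members and of shared intervals (11.1%), and in 12.8% of neighbouring windows. AGGTCA repeated in the same orientation with 1 to 5 bases between, the form RXR dimers prefer, was present in 1 member (0.0148%) and in 0.0914% of neighbouring windows. A missing match says only that these exact letters were not there. The promoter-linked Ccaat box CCAAT of Nf-Y, present in 24.5% of members and 24.4% of windows, and the forkhead consensus TGTTTAC, in 2.84% and 2.83%, were no more frequent at members than beside them.

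The 6772 members were nearest to 3918 genes, 17.6% of the 22215 protein-coding genes and 55.3% of the 7079 genes nearest to any control p300 interval. Of these genes, 2387 had 1 member, 849 had 2 and 682 had 3 or more. The 153 genes with 5 or more held 939 members. A shared near-gene interval was nearest to 1195 of the 3918 genes as well (30.5%). Another 1777 (45.4%) were nearest to no interval of the bexarotene p300 list at any distance, and 1921 (49%) were nearest to a myogenin interval somewhere, outside the members themselves. The same shares over all genes nearest to a control p300 interval are not given here. These counts therefore describe the 3918 genes only, and do not show a difference from other genes. The nearest gene is a convention of position and does not show which gene an interval acts on.

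The order of the leading genes depends on how members are delimited. Their bexarotene counts, here and below, stand beside 9154 bexarotene intervals for 22051 control intervals in the whole lists (41.5%). Of all control intervals, 67.3% had no overlap with the bexarotene list. The genes were ranked by intervals unique to control, so a low bexarotene count follows in part from the ranking and does not show a loss particular to a gene. Smad3 had most members, 13 of its 20 control p300 intervals, against 7 intervals in the bexarotene list. Of the 13 members, 12 lay in introns, 8 of them in intron 1, and 5 held AP-1. Pde4d, a cAMP phosphodiesterase gene of 1504 kb, came next with 11 of 28 control intervals, all intronic, of which 5 held AP-1. Nedd9 and Phldb2, which encode a focal adhesion scaffold and a protein of the cell cortex, had 10 each, and so had Zbtb20, a zinc finger repressor gene. The 10 Phldb2 members were all intronic, and the gene was nearest to 14 control p300 intervals and 1 bexarotene interval. When intervals of the smallest length were left out, Smad3, Phldb2 and Zbtb20 had 8 members each and Pde4d had 3. At most 20 kb from the TSS, Smad3 had all 13, Pde4d and Zbtb20 had 6 each and Cd44 had 2.

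A group of 7 genes had 9 members each, and they were not alike. Cd44 had 13 control and 1 bexarotene p300 interval and no shared near-gene interval. Its 6 upstream-most members, from chr2:102777159 to 102789013, lay within 11.9 kb, and 1 of the 6 held AP-1. Met, the receptor for hepatocyte growth factor, had 16 control and 4 bexarotene intervals, and 6 of its members were intronic. Rbfox2, a splicing regulator gene, had 14 and 3 intervals. Plcb4 and Ets1 had 12 and 6 intervals in the bexarotene list, and Sept9, with 6, also had 8 control and 4 bexarotene myogenin intervals that no member overlapped. Among genes with 8 members, Mtss1, an actin and membrane adaptor gene, had none with AP-1, whereas Gtdc1, a glycosyltransferase-like gene, had 5. Gm7866, a predicted gene of under 1 kb, had 8 of 9 control intervals as members and is named here only as the nearest annotated start.

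**Figure D5:**
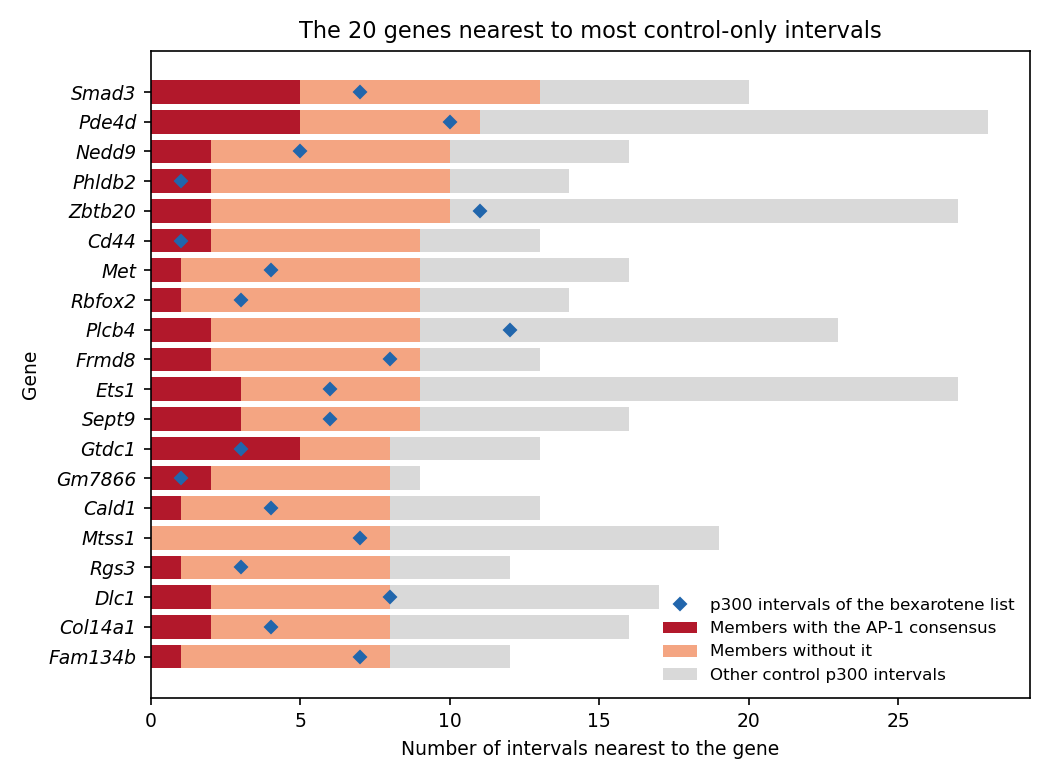
Number of p300 intervals nearest to each of the 20 genes with most members (horizontal axis, count). Bars split the control intervals into members with the AP-1 consensus, members without it and other control intervals. Diamonds mark all intervals of the bexarotene list, which held 9154 in all for 22051 in control. Smad3 leads with 13 members of 20 control intervals, and Phldb2 and Cd44 have 1 bexarotene interval each.

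Of the 13 gene lists compared, the one on cell shape and attachment had the highest share of genes with a member. In the list of focal adhesion and actin cytoskeleton genes, 40 of 55 (72.7%) had a member, beside 17.6% of all protein-coding genes. Of the listed genes with any control p300 interval, 88.9% had a member, beside 55.3% over all such genes. The listed genes were long, with a median of 77.7 kb against 15.5 kb for all, and the part of gene length in these shares was not tested. Besides Nedd9, the list held Cald1 (caldesmon) and Myh9 (non-muscle myosin heavy chain) with 8 members each, Tns3, Palld and Tpm1 with 6 each, and Svil and Tns1 with 5. Actn4, a non-muscle alpha-actinin gene, had 4 members among 5 control p300 intervals and no bexarotene interval, and Itgb3, an integrin gene, had 4 members, 5 control intervals and 1 bexarotene interval.

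Of 43 extracellular matrix genes, 26 (60.5%) had a member, 68.4% of those with any control p300 interval, beside 17.6% of all protein-coding genes and 55.3% of those with such an interval. Their median length was 54.7 kb. Col6a2 had 8 members, 7 of which lay within 20.3 kb from chr10:76096790 to 76117045 and 3 of which held AP-1. Col4a2 had 7, Col12a1 and Thbs1 had 5 each, and Lama2, a laminin chain gene mutated in muscular dystrophy, had 4. Thbs1 differed from the collagens in having 35 control intervals and 21 in the bexarotene list. Of the 26 genes with a member in this list, 10 had no shared near-gene interval, beside 2723 of 3918 (69.5%) over all genes with a member.

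Of 41 growth factor and receptor tyrosine kinase genes, 28 (68.3%) had a member, a share next to that of the focal adhesion list, and so had 80.0% of those with any control p300 interval, and the median listed gene was 28.1 kb long. Areg, an epidermal growth factor receptor ligand gene, and Dusp6, a phosphatase gene of the ERK pathway, had 3 control p300 intervals each, all of them members, and 2 of the 3 held AP-1 in both. Pdgfb had 3 as well at 9.57 to 12.4 kb upstream of the TSS, and no bexarotene interval. Notch and Wnt genes had a member in 24 of 41 cases (58.5%), 82.8% of those with any control p300 interval. Notch1 had 4 members among 5 control intervals, Notch3 had 3 of 3, and the Notch ligand gene Jag1 and the Notch effector gene Rbpj had 4 each. In the TGF-beta, activin and BMP list, 19 of 42 (45.2%) had a member, 59.4% of those with any control p300 interval, near the 55.3% over all such genes, with a median length of 45.7 kb, and after Smad3 came Fstl1 with 6, Ltbp1 with 5, and the inhibitory Smad7 and Ltbp2 with 3 each.

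Of 22 myogenic transcription factor genes, 11 (50.0%) had a member, which was 73.3% of those with any control p300 interval. Tcf12, an E-protein gene whose product pairs with MyoD, had 6, Mkl1 had 4 and Mef2a had 3. Sarcomere genes had a member in 11 of 42 cases (26.2%), and 14 members in all. Myom1 had 3, Myl4 had 2 of its 2 control intervals, and a single long member of 689 bp lay 3.8 kb upstream of Tnni1, the slow troponin I gene. The listed sarcomere genes with any control p300 interval had a member in 61.1% of cases, beside 55.3% over all such genes, and the difference between regulators and sarcomere genes was not tested. Myoblast fusion and surface genes had a member in 9 of 24 cases (37.5%), 60% of those with any control p300 interval, led by Elmo1 with 6. Among the markers set for myoblasts, Myod1 and Des had 1 member each, Cdh15 and Chrna1 had control p300 intervals but no member, and Myf5 and Myog were nearest to no control p300 interval. Of the other markers, Pecam1 and Sox10 had 1 control p300 interval each and no member, and Ptprc, Epcam and Alb had none.

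Of 20 genes for AP-1 and small Maf factors, 9 (45.0%) had a member, 69.2% of those with any control p300 interval, and none had more than 2. Bach2, Atf3 and Jdp2 had 2 each. Of 25 Runx, Tead and Hippo genes, 11 (44.0%) had one, 55.0% of those with any control p300 interval and so close to the 55.3% over all such genes. Runx1 had 5 members among 43 control p300 intervals, against 23 in the bexarotene list, Runx2 and Amotl2 had 4 each, and Vgll3 and Lats2 had 3 each. Of 33 RXR, RAR and retinoid handling genes, 11 (33.3%) had a member, and 47.8% of those with any control p300 interval, below the 55.3% over all such genes. Rara had 5, all in its introns, and Rxra, Ppara, Dhrs3 and Tgm2 had 3 each. Ppara, with 9 control p300 intervals, and Dhrs3, a retinaldehyde reductase gene with 4, had no bexarotene p300 interval. Of 30 cell cycle genes, 10 had a member (33.3%, and 58.8% of those with any control p300 interval), and Cdk1 had 3 of 4 control intervals and no bexarotene interval. Among 16 genes for p300, related acetyltransferases and deacetylases, 3 had a member, close to the 17.6% of all protein-coding genes, and 42.9% of those with any control p300 interval had one. The 3 were deacetylase genes, Hdac4 with 4 members, Hdac5 with 2 and Hdac7 with 1.

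Of the genes with members and no bexarotene p300 interval, 3 had 6 members. Ccnl1, a cyclin gene of splicing, had 8 control p300 intervals and 4 of its 6 members held AP-1. Soat1, which encodes an acyltransferase that esterifies cholesterol, had 6 control intervals, all of them members, and 3 held AP-1. Kbtbd11 had 7 control intervals and 1 member with AP-1. Next came genes with 5 members, among them Ptn, the gene of the growth factor pleiotrophin, and Ern1, a sensor of unfolded proteins, where all 5 control intervals were members and none held AP-1, and Glce, a heparan sulfate epimerase gene, where 4 of 5 held it.

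Most members stood alone. Joining members at most 10 kb apart gave 5406 groups, of which 4395 held 1 member and 68 held 4 or more. In all, 35.1% (34.0% to 36.2%) of members had another within 10 kb. Of the intervals unique to control over 50 kb from a TSS, without myogenin, a close 34.3% had another of their class so near. In addition, 24.3% (23.3% to 25.4%) of members had a shared p300 interval within 10 kb, whatever its own distance from a gene. The largest group held 9 members in 19.4 kb at chr19:5832153-5851517 beside Frmd8, with 3 shared intervals inside, and 2 of the 9 held AP-1. With noncoding transcripts also counted as starts, Frmd8 was nearest to none of them. The next held 8 members in 27.8 kb at chr15:102790251-102818017 between Hoxc8 and Hoxc11, homeobox genes of trunk position, and none of them held AP-1. In groups of 5 members, 3 held it beside Socs3, a cytokine feedback gene, and 2 beside Lif, a cytokine gene. None of the 5 did beside Gm7866, Hhat, Pi15 or Scara5. These counts are small, and over all members the share was 31.2%.

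Members were present on every chromosome searched. Their density ran from 0.546 per Mb on chromosome X to 4.32 per Mb on chromosome 11. Of near-gene intervals without myogenin, the share unique to control ran from 67.8% on chromosome 12 to 79.4% on chromosome 2, so on each chromosome members outnumbered shared intervals. The share of members with AP-1 ran from 26.1% on chromosome 15 to 38.7% on chromosome 7.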

How the data were processed

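Each p300 and myogenin library was processed on its own: the authors aligned 50 bp single-end reads to mm9 (Bowtie for p300, BWA-MEM for myogenin), took out duplicates with Picard and called intervals with HOMER findPeaks in the factor style. The deposited lists give the chromosome, start and end of each interval as positions, with no count, score or input value, so the depth of each library is not known from them and no other threshold could be tried. Positions are printed counted from 1.

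Overlap meant at least 1 shared bp. Distances ran from the interval centre to 45952 TSS positions of protein-coding transcripts in GENCODE vM1 on mm9, where the study used RefSeq, and each interval was given to the gene of the nearest one. Intronic and exonic refer to protein-coding transcripts. Introns were numbered on the longest transcript of the gene at that place. The 16 consensus sequences were counted as exact matches on both strands in windows of 200 bp around the centre. Windows 2 kb away that held a p300 interval were dropped. The members and the 13 gene lists (437 genes) were chosen with earlier results of these data known.

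Named genes were the 20 nearest to most members, with ties ordered by total length, and from each list the genes with at least 3 members, or the leading 3 where fewer than 3 reached that. Other genes, the contexts of CACCTG and the sequence sets described so were chosen after values were seen. No test was possible with 1 library per condition. Alternatives, 14 in all, changed the overlap rule, the distances and TSS catalogue, the myogenin rule, the chromosomes, the smallest length and the windows. Scripts ran in Python 3.11.15 (pysam 0.24.0, pandas 2.3.3, numpy 2.4.6, scipy 1.17.1, and matplotlib 3.10.9 for figures), and the overlap, distance, motif and interval functions were tested on simulated data. A few genes that the rule names are not reported here.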

Additional observations from a re-analysis of the deposited data

How the results depend on the processing

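No paired analysis was possible because each condition had 1 library. Of the AP-1, Runx, Tead and E-box differences (each form and either) between members and shared near-gene intervals, which were the ones recomputed, 3 turned direction in some alternative. AP-1 went from 3.0 points lower to 0.204 points higher (1.82 lower to 2.21 higher) when members with a bexarotene p300 interval within 1 kb were moved to the shared class, which changed both classes. The CACCTG difference went from 0.586 points to -1.57 with no myogenin condition and -4.31 over the whole interval, and the Tead difference from -0.695 to 1.07 under a reciprocal overlap of 50% and 0.0359 with no bexarotene interval within 1 kb. Over the whole interval the Tead difference was -8.79 points (-10.8 to -6.81). The AP-1 difference was -0.716 points with no myogenin condition, -0.552 among intervals longer than the smallest, -6.19 when shared meant a reciprocal overlap of 50%, and -9.74 over the whole interval. The AP-1 share of members was 34.1% among longer intervals and 20.6% with 50 bp on each side. The E-box share of members was 31.9% with no myogenin condition, 16.2% with 50 bp on each side and 30.0% over the whole interval, and the E-box difference was -10.6 points with no myogenin condition and -14.0 over the whole interval. Members numbered 3914 at most 20 kb from the TSS and 3624 when the smallest intervals were left out, which left 2547 genes with a member. The share at the smallest length was 41.8% under the reciprocal rule. The intronic share was 49.8% with all GENCODE transcripts and 57.1% at most 20 kb from the TSS. The share within 10 kb of a shared interval was 18.4% under the reciprocal rule and 20.6% with no bexarotene interval within 1 kb, and it was 15.9% at 5 kb and 36.1% at 20 kb. With all GENCODE transcripts as starts, Frmd8 had no member, Plcb4 and Cald1 had 5 each and Rgs3 had 4. The counts of most of the 20 leading genes moved at most 20 kb from the TSS and without the smallest intervals, and so did their order. The whole-interval differences compared unequal lengths, a median of 200 bp in members and 324 bp in shared intervals, and so are not a like comparison. The cause of the other moves was not tested. Depth could not be assessed from positions, and 1 library per condition leaves the variation between cultures unmeasured.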
